A study of Pyrus pyrifolia with 6 samples.

Results

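Cuticle, wax and lipid-transfer genes were taken from the deposited gene table as the protein-coding genes whose product name held 1 of 7 terms: 3-ketoacyl-CoA synthase, fatty acyl-CoA reductase, omega-hydroxypalmitate O-feruloyl transferase, ECERIFERUM, GDSL esterase/lipase, lipid-transfer protein or glycerol-3-phosphate acyltransferase. There were 245 such genes among 38969 genes, of which 34996 were protein coding. The choice rested on names alone and used no measured value. RNA-seq compared fruit tissue with watercore, a disorder in which the flesh becomes water-soaked and translucent, with healthy tissue. The 3 watercore and 3 healthy libraries came from Pyrus pyrifolia pears, cultivar Qiurong in the labels, harvested at a time the labels give as 120 D, from orchard trees 5 years old. The study's methods give another cultivar name, harvest time and tree age. The labels name no allele or agent in either group, and the groups differ in them only by the disorder. The study calls the 3 libraries of a group biological replicates, but the labels do not tell whether they came from separate fruits or trees, so the p-values measure the spread between these libraries, which may be technical.

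The plant cuticle is a layer of cutin polyester and wax on the epidermis of aerial organs, and suberin is a related polyester laid down in roots, bark and wound tissue. Long-chain acyl groups are elongated by a 3-ketoacyl-CoA synthase and its partner enzymes. They are then turned into alkanes, alcohols and esters for wax, or hydroxylated, joined to glycerol and exported for cutin and suberin. Lipid-transfer proteins are small secreted proteins that carry lipids outside the cell, and GDSL esterases/lipases are hydrolases that include cutin-polymerising enzymes in tomato but also many members with no known substrate. In pear fruit the cuticle lies on the skin, and the flesh inside it is parenchyma with clusters of lignified stone cells.

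The organ label of all 6 libraries reads fruit skin, whereas the treatment text and the study's methods speak of pulp. Epidermal markers were close to absent: of 26 genes named as epidermal regulators or protodermal factors, 18 were at 0 in all watercore libraries and 22 in all healthy ones. The sum of all 26 was 0.638 to 1.40 FPKM (fragments per kilobase of gene length, scaled for library size, as deposited) in watercore and 0.122 to 0.186 FPKM in healthy tissue, and none had enough counts for a test. The defining markers of the labelled skin were thus at or near 0 in both groups. The libraries held 14431337 to 15290688 counts in watercore and 14382020 to 14871188 in healthy tissue, and 27133 to 27293 and 24757 to 25105 genes had at least 1 count in those groups. Of these counts, the 245 genes took 0.0913% to 0.0976% in watercore and 0.0945% to 0.103% in healthy tissue. Summed levels of seed, xylem and stone-cell, and phloem markers did not overlap between the groups, nor did the epidermal sums above, while those of green-tissue markers did. The 24 seed storage and oil-body genes summed to 934 to 1056 FPKM in watercore and 76.1 to 97.99 FPKM in healthy tissue, led by a pair of 11S globulin genes, with 9 and 15 of the 24 at 0 in all libraries of those groups. This pair, LOC103946294 and LOC103946298, had 411 to 514 FPKM in watercore and 1.89 to 8.08 FPKM in healthy tissue. The next most abundant, oleosin genes LOC103926613 and LOC103929926, were not called (log2 fold changes 0.54 ± 0.19 and −0.31 ± 0.21). The 57 laccase and secondary-wall cellulose synthase genes, used as markers of xylem and stone cells, summed to 55.9 to 110 FPKM and 1.61 to 2.68 FPKM, with 22 and 45 of them at 0. In watercore this sum was led by genes named for laccase-7 and laccase-15. By the rule given below, 10 were tested, 8 were higher, some with no healthy count, and 1 was lower, against 17.6% and 7.54% of all tested genes. Except for LOC103951512, the higher genes passed the filter on low counts through the watercore libraries alone, which in part fixed their direction. The only tested cellulose synthase, LOC103943043, had 11, 22 and 18 counts in watercore and 14, 5 and 20 in healthy tissue, which overlapped. Genes named for laccase-4, laccase-17 and cellulose synthase subunits 4 and 7 had at most 4 counts in any library, so the sum says little about them. Chlorophyll a-b binding proteins (27 genes) summed to 65.6 to 66.6 FPKM in watercore and 59.3 to 66.3 FPKM in healthy tissue, and 12 phloem genes to 78.7 to 84.2 FPKM and 63.7 to 73.1 FPKM. The part of these cell types in the results below was not tested. In such bulk samples, fewer cells of a type and less RNA per cell cannot be told apart.

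Most of the cuticle gene set was silent or nearly so in these tissues. Of the 245 genes, 109 had no count in any library, and 200 had too few counts to be tested. The 45 that passed the low-count filter were 18.4% of the set, against 54.4% of all genes. Among the 136 genes with any count, 46 (33.8%) were counted in watercore libraries only and 5 (3.68%) in healthy libraries only. Over all genes, these shares were 10.8% and 2.63%, but the comparison was not matched for abundance, and more of this set was too low to test. The counts behind this were small: a gene seen only in watercore had a median of 3 counts summed over the group and at most 50. The number of these genes with at least 1 count was 102 to 109 per watercore library and 68 to 75 per healthy library. At least 1 FPKM on average was reached by 40 genes in watercore and 35 in healthy tissue, at least 10 FPKM by 12 and 14, and at least 100 FPKM by 2 in each group.

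**Figure D1:**
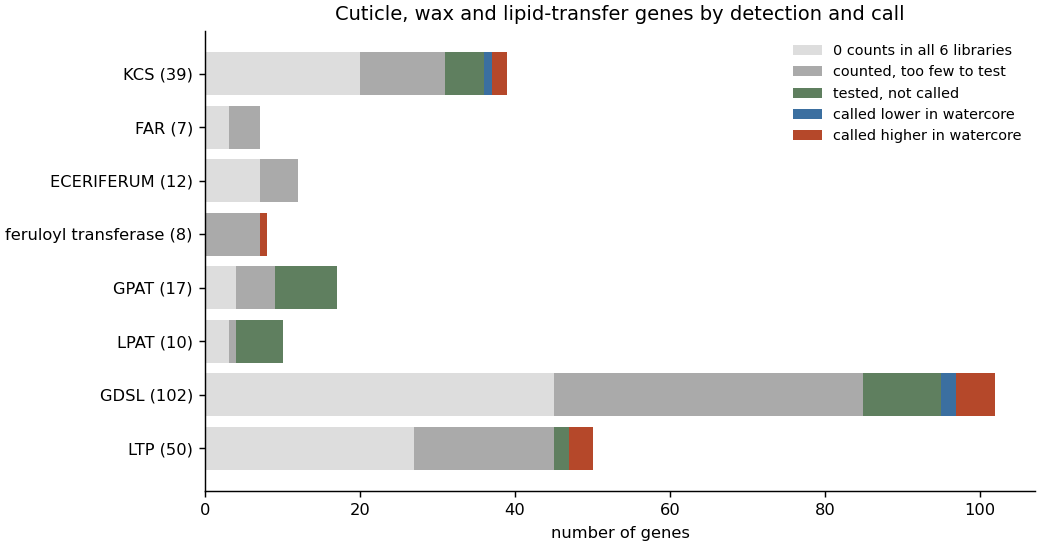
Number of genes (x axis) in each of the 8 groups of cuticle, wax and lipid-transfer genes (rows, total in brackets), stacked by whether they had 0 counts in all 6 libraries, had counts but too few to test, were tested and not called, or were called lower or higher in watercore. The 12 ECERIFERUM and 7 fatty acyl-CoA reductase (FAR) genes held no tested member, and the 102 GDSL genes held the most calls. KCS, 3-ketoacyl-CoA synthase; GPAT, glycerol-3-phosphate acyltransferase; LPAT, 1-acyl-sn-glycerol-3-phosphate acyltransferase; LTP, lipid-transfer protein.

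A gene was called when its fold change was at least 1 on the log2 scale and its adjusted p was under 0.05, in edgeR's quasi-likelihood test over 21200 genes with Benjamini-Hochberg adjustment. By this rule 11 of the 45 tested genes were higher in watercore (24.4%), 3 were lower (6.67%) and 31 were not called. Over all tested genes, 17.6% were called higher and 7.54% lower, or 25.1% in either direction, so the share of lower calls lay near the background and that of higher calls somewhat above it. Of the 11 higher genes, 5 had passed the filter through the watercore libraries alone, and 1 of the 3 lower genes through the healthy libraries alone. Those 5 were LOC103938506, LOC103942916, LOC103928032, LOC103930698 and a further GDSL gene, and the lower gene was LOC103949243. Passing in this way in part fixed the direction of such genes. Among the 39 genes with at least 10 counts in every library, 6 were higher (15.4%) and 2 lower (5.13%), against backgrounds of 12.2% and 5.8%. With no minimum fold, 16 genes had an adjusted p under 0.05 on the higher side and 13 on the lower side, where the backgrounds were 32.3% and 30.4%. The values of watercore and healthy libraries did not overlap for 31 of the 45 genes (69.1% of all tested genes). The median log2 fold change of the 45 genes was −0.12, with quartiles of −0.53 and 0.76, against a median of 0.00 over all genes. The number of higher genes depended on how many were tested. DESeq2, with its own filter, called 23 of 95 higher (24.2%, against 16.2% of all genes), and edgeR with no filter called 25 of 136 (18.4%, against 15.8% of all genes).

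**Figure D2:**
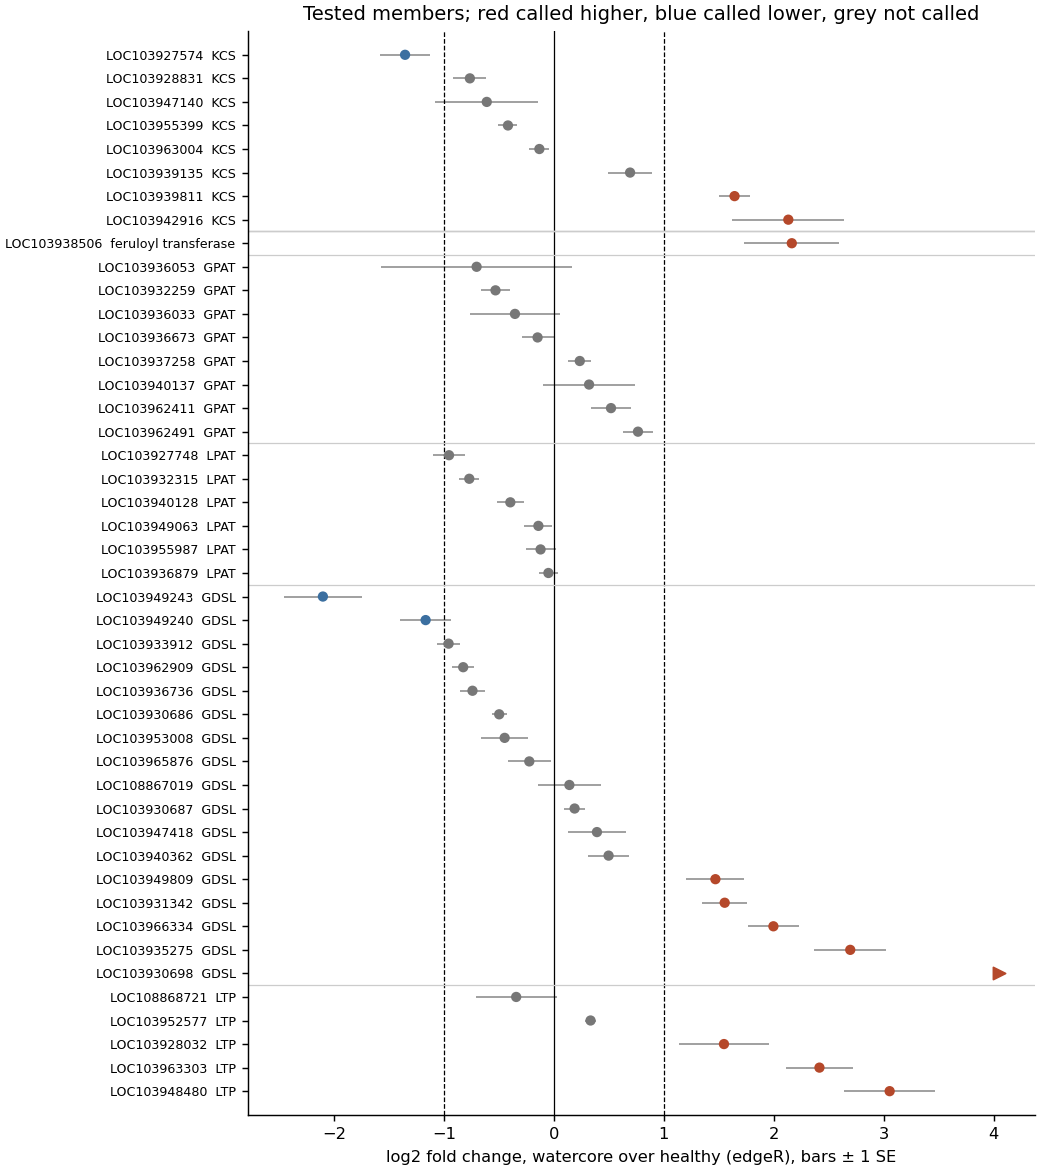
Log2 fold change of watercore over healthy (x axis, points) with 1 SE (bars) for the 45 tested genes (rows), sorted within each group of genes, with dashed lines at a log2 fold change of 1 in either direction. Red points were called higher, blue points lower and grey points were not called. The arrowhead marks LOC103930698, which had no healthy count and is drawn at its lower bound of 16.5-fold. Higher and lower genes stand side by side among the KCS and GDSL genes, and no LPAT or GPAT gene lies beyond the dashed lines.

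Elongation of acyl chains begins with 3-ketoacyl-CoA synthase, the condensing enzyme that sets chain length. Of 39 such genes, 20 had no count and 8 were tested. Of the 8, 2 were higher in watercore (25%) and 1 was lower (12.5%), against 17.6% and 7.54% of all tested genes. Their summed level hardly differed: 44.6, 43.4 and 41.01 FPKM in watercore libraries 1 to 3, against 44.3, 44.8 and 47.1 FPKM in healthy libraries 1 to 3. The sum was led by LOC103955399 (3-ketoacyl-CoA synthase 4-like, scaffold NW_008988164.1, 228671 to 230854, minus strand), which supplied 35.0% of it in watercore and 43.9% in healthy tissue. This gene had 15.8, 14.6 and 14.8 FPKM in watercore, against 18.1, 21.8 and 19.9 FPKM in healthy tissue. All watercore values were below all healthy ones, and its log2 fold change of −0.42 ± 0.09 (SE) had an adjusted p of 0.0025 in edgeR's test but lay inside the fold limit. Genes named for 3-ketoacyl-CoA synthase 11 went in different directions. LOC103939811 (NW_008989100.1, 96117 to 98717, minus strand) had 7.72, 6.62 and 6.13 FPKM in watercore, against 2.31, 1.85 and 2.34 FPKM in healthy tissue. The groups were far apart, and the gene was higher by 1.64 ± 0.14 on the log2 scale (edgeR, adjusted p = 1.4e-05). LOC103927574 (NW_008988427.1, 338846 to 341202, minus strand), of the same name, was lower, with 1.31, 1.10 and 1.15 FPKM in watercore and 3.44, 2.26 and 3.35 FPKM in healthy tissue. Its log2 fold change was −1.35 ± 0.23 (edgeR, adjusted p = 8.2e-04). A further gene of this name, LOC103963004, whose second annotation is a histone H2A variant, was more abundant than either and differed little (9.48, 10.2 and 8.40 FPKM in watercore, 10.3, 9.75 and 10.5 FPKM in healthy tissue, log2 fold change −0.13 ± 0.09, edgeR adjusted p = 0.24). Whether reads were shared between such like-named copies cannot be seen in a gene table.

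LOC103942916 (3-ketoacyl-CoA synthase 1-like), an Arabidopsis homolog of which acts in wax synthesis, was near the detection limit. It had 0.876, 1.497 and 0.913 FPKM in watercore, against 0.276, 0.0681 and 0.393 FPKM in healthy tissue, and was called higher by 2.13 ± 0.51 on the log2 scale (edgeR, adjusted p = 0.0054). Since it had passed the low-count filter through the watercore libraries alone, its direction was in part fixed. LOC103947140 (3-ketoacyl-CoA synthase 6-like), whose Arabidopsis namesake is the main condensing enzyme of cuticular wax, stayed below 0.65 FPKM in every library, its groups overlapped and it was not called. Its second annotation is a different protein (FLX-like), and it lies wholly inside a second 3-ketoacyl-CoA synthase 6 gene on the same strand, LOC103947136, which had 6, 6 and 12 counts in watercore and 0 in each healthy library. Reads of this pair may have been divided between them. LOC103940571, named for 3-ketoacyl-CoA synthase 20, which acts in Arabidopsis in root suberin, had 11, 7 and 16 counts in watercore and 0, 0 and 1 in healthy tissue. That is a ratio of 33.7 with an exact 95% interval of 5.65 to 1370, which covers counting error only, and the gene was not tested. These genes and others outside the naming rule were chosen after their values were seen.

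The fatty acyl-CoA reductase genes, which act in the alcohol branch of wax synthesis, and the ECERIFERUM genes were almost silent. Fatty acyl-CoA reductases make primary alcohols. Their 7 genes summed to 0.178, 0.155 and 0.321 FPKM in watercore, against 0, 0 and 0.123 FPKM in healthy tissue. The 12 ECERIFERUM genes, whose Arabidopsis namesakes 1 and 3 form alkanes, summed to 0.700, 0.541 and 0.223 FPKM in watercore and 0.357, 0.390 and 0.331 FPKM in healthy tissue. No gene of these groups could be tested. The most counted was LOC103965506 (ECERIFERUM 1-like), with 5, 14 and 6 counts in watercore and 4, 8 and 11 in healthy tissue, a range that overlapped. Its second annotation in the table is a sister chromatid cohesion protein and no domain is listed for it, so it may not be a wax gene.

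Omega-hydroxypalmitate O-feruloyl transferase joins ferulate to hydroxy fatty acids in suberin. All 8 genes of this name had at least 1 count, but their summed level was low, at 1.11, 1.14 and 1.48 FPKM in watercore and 0.143, 0.171 and 0.215 FPKM in healthy tissue. Of the 8 genes, 5 were counted in watercore only. The tested gene, LOC103938506 (NW_008988981.1, 54509 to 56830, plus strand), had 0.628, 0.559 and 0.551 FPKM in watercore, against 0.0675, 0.134 and 0.175 FPKM in healthy tissue. It was higher by 2.16 ± 0.43 on the log2 scale (edgeR, adjusted p = 0.0020). This gene had passed the low-count filter through the watercore libraries alone, which in part fixed its direction. A second gene, LOC103936111, had 4, 11 and 12 counts in watercore and 0, 0 and 1 in healthy tissue, 26.8 times as many relative to library totals (counting interval 4.41 to 1096), and was not tested. The sum of the laccase and cellulose synthase markers given above was also higher in watercore, and the part of these markers in the result was not tested.

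**Figure D3:**
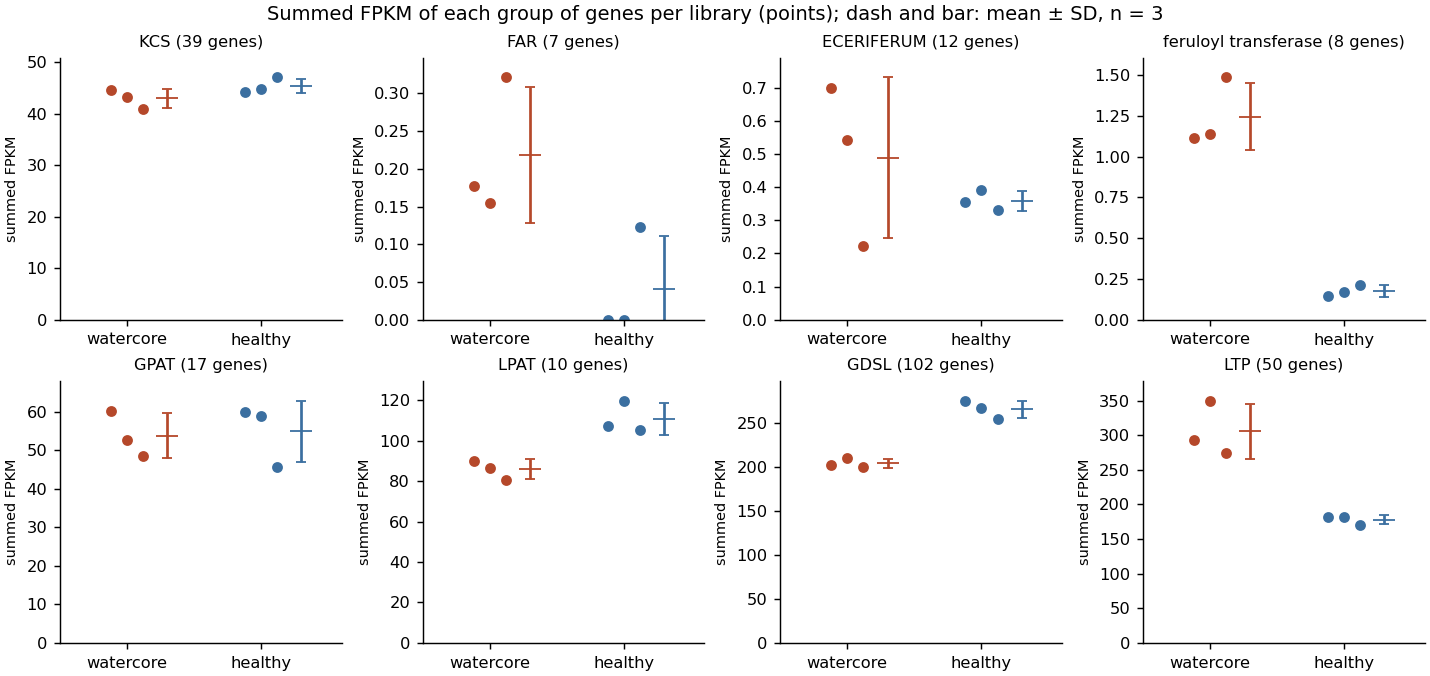
Summed FPKM (y axis of each panel, starting at 0) of all genes of each group in the 3 watercore (red, left) and 3 healthy (blue, right) libraries, with the mean and SD of each group beside the points. Lipid-transfer proteins lay at 274 to 350 in watercore and 171 to 182 in healthy tissue, GDSL esterases/lipases at 200 to 210 and 254 to 274, and FAR, ECERIFERUM and feruloyl transferase genes stayed below 1.5 in every library.

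Glycerol-3-phosphate acyltransferases put an acyl group on glycerol-3-phosphate, for cutin and suberin in the plant-specific type and for membrane and storage lipids in others. Of 17 genes, 8 were tested and 0 were called, against 25.1% of all tested genes. In edgeR, 2 on the higher side and 1 on the lower side had an unadjusted p under 0.05, against 7223 and 6889 of all 21200 tested genes. DESeq2 called 1 of 12 higher and 0 lower, against 4308 and 1609 of 26649 genes. Their summed level overlapped between the groups, with 60.05, 52.7 and 48.6 FPKM in watercore and 60.02, 59.0 and 45.6 FPKM in healthy tissue. Most of it came from 5 genes named 3-like whose second annotation is an animal enzyme of the endoplasmic reticulum type, at 47.8, 40.8 and 36.1 FPKM in watercore and 48.3, 47.6 and 33.4 FPKM in healthy tissue. Their most abundant member, LOC103936673 (NW_008988833.1, 140148 to 144840, plus strand), had 15.4, 16.6 and 14.9 FPKM in watercore and 15.4, 21.5 and 14.6 FPKM in healthy tissue (log2 fold change −0.15 ± 0.15, edgeR adjusted p = 0.40). Another, LOC103936053, varied more within each group than between them, with 13.1, 3.57 and 0.994 FPKM in watercore and 16.8, 10.3 and 1.56 FPKM in healthy tissue. The highest library exceeded the lowest 13.2-fold in watercore and 10.8-fold in healthy tissue, the widest spread of the 45 tested genes in either group. Its log2 fold change was −0.70 ± 0.87 (edgeR, adjusted p = 0.50).

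The plant-specific type was low. LOC103932259 (probable glycerol-3-phosphate acyltransferase 8), whose Arabidopsis namesake acts in cutin synthesis, was the only tested one of 9, at 5.29, 4.24 and 4.90 FPKM in watercore and 7.02, 6.58 and 7.09 FPKM in healthy tissue. Its watercore values were all below the healthy ones (log2 fold change −0.53 ± 0.13, edgeR adjusted p = 0.0063), within the fold limit. LOC103935642 (glycerol-3-phosphate acyltransferase 5-like), named for an Arabidopsis suberin enzyme, had 6, 4 and 7 counts in watercore and 0, 1 and 0 in healthy tissue, and was not tested. The plastid enzyme LOC103962491 had 5.55, 5.11 and 5.28 FPKM in watercore, against 2.90, 3.32 and 3.08 FPKM in healthy tissue, a log2 fold change of 0.76 ± 0.14 (edgeR, adjusted p = 0.0011), also short of the limit. The term of the rule also takes in 10 lysophosphatidate acyltransferases (1-acyl-sn-glycerol-3-phosphate acyltransferases), which add the next acyl group on the way to membrane lipids. Of these, 6 were tested and 0 were called, against 25.1% of all tested genes. In edgeR, 3 had an unadjusted p under 0.05 on the lower side and 0 on the higher side, against 6889 and 7223 of all 21200 tested genes. DESeq2 made 0 calls. The most abundant, LOC103936879, had 41.1, 40.5 and 36.0 FPKM in watercore and 36.0, 42.0 and 42.8 FPKM in healthy tissue, and its groups overlapped. LOC103927748 had 14.9, 14.8 and 11.6 FPKM in watercore, against 28.1, 30.3 and 20.9 FPKM in healthy tissue. Its log2 fold change of −0.95 ± 0.15 (edgeR, adjusted p = 5.1e-04) fell just short of a call, and passed the limit at −1.09 without healthy replicate 3 and at −1.01 without watercore replicate 1.

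GDSL esterases/lipases were the largest group, with calls on both sides as among the 3-ketoacyl-CoA synthases. Of 102 genes, 45 had no count and 17 were tested. Of the 17, 5 were higher (29.4%) and 2 were lower (11.8%), against 17.6% and 7.54% of all tested genes. Their summed level was lower in every watercore library, at 202, 210 and 200 FPKM, against 274, 267 and 254 FPKM in healthy tissue. A single gene carried most of it, LOC103930686 (GDSL esterase/lipase 1-like, NW_008988520.1, 153892 to 155894, plus strand), with 62.1% of the sum in watercore and 67.0% in healthy tissue. It had 121, 136 and 124 FPKM in watercore, against 182, 185 and 165 FPKM in healthy tissue, and ranked 665th by mean FPKM among all genes. The groups did not overlap, and the log2 fold change of −0.50 ± 0.07 (edgeR, adjusted p = 2.2e-04) lay inside the fold limit. Like-named genes near it on the scaffold differed in direction. LOC103930698 (GDSL esterase/lipase 3-like, 141550 to 144320, plus strand), 9.57 kb upstream, had 21, 13 and 16 counts in watercore and 0 in every healthy library. If 3 counts are taken as the limit for the healthy libraries together, it was at least 16.5-fold higher in watercore (edgeR, adjusted p = 4.0e-04). LOC103930698 had passed the low-count filter through the watercore libraries alone, which in part fixed its direction. On the other side LOC103930682, the nearest, had 3, 2 and 4 counts in watercore and 10, 2 and 5 in healthy tissue, which overlapped, and was not tested. Beyond it LOC103930687 had 19.9, 17.6 and 18.2 FPKM in watercore and 17.4, 15.4 and 15.7 FPKM in healthy tissue and was not called (log2 fold change 0.19 ± 0.10, edgeR adjusted p = 0.11).

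Among the other higher GDSL genes, LOC103966334 (CPRD49-like, NW_008988350.1, 267308 to 272940, minus strand) had 5.203, 4.53 and 4.37 FPKM in watercore, against 1.16, 1.44 and 0.890 FPKM in healthy tissue. It was higher by 1.996 ± 0.23 on the log2 scale (edgeR, adjusted p = 8.4e-05). LOC103936736, a more abundant gene named CPRD49, went the other way without reaching the limit (12.3, 11.1 and 10.8 FPKM in watercore, 19.9, 20.1 and 16.6 FPKM in healthy tissue, log2 fold change −0.74 ± 0.11). LOC103935275 (At2g30220-like, NW_008988738.1, 207417 to 210320, minus strand) had 3.20, 2.58 and 2.34 FPKM in watercore, against 0.342, 0.579 and 0.304 FPKM in healthy tissue. It was higher by 2.70 ± 0.33 on the log2 scale (edgeR, adjusted p = 1.2e-04), but overlaps 142 bases of LOC103935274, an exocyst subunit gene on the opposite strand that was itself higher by 1.14. The remaining higher genes were LOC103931342 (At1g29670-like, log2 fold change 1.55 ± 0.20) and LOC103949809 (At3g26430-like, 1.47 ± 0.26). Besides LOC103930698, either LOC103935275 or LOC103949809 had passed the low-count filter through the watercore libraries alone, which in part fixed its direction. Among genes with at least 10 counts in every library, 3 GDSL genes were called higher. LOC103949809 shares 83 bases with another GDSL gene of its name on the same strand.

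Both lower GDSL genes lie 21.4 kb apart on NW_008988101.1. LOC103949243 (At5g08460, 417874 to 420069, plus strand) had 0.560, 0.319 and 0.359 FPKM in watercore, against 1.28, 1.92 and 2.15 FPKM in healthy tissue, a log2 fold change of −2.10 ± 0.35 (edgeR, adjusted p = 7.9e-04). This gene had passed the low-count filter through the healthy libraries alone, which in part fixed its direction. LOC103949240 (At4g10955, 393664 to 396453, plus strand) had 2.30, 2.38 and 1.97 FPKM in watercore, against 4.66, 3.83 and 6.36 FPKM in healthy tissue, and its log2 fold change was −1.17 ± 0.23 (edgeR, adjusted p = 0.0020). Without healthy replicate 3, its highest library, this value was −0.94 and the call was lost. A homolog of the same name, LOC103933912, had 6.63, 6.15 and 6.09 FPKM in watercore, against 13.2, 11.5 and 11.6 FPKM in healthy tissue and just missed the limit (log2 fold change −0.96 ± 0.11, edgeR adjusted p = 7.1e-05). A Pfam GDSL domain was listed for 84 of the 102 genes and for 10 of the 17 tested ones, and the At4g10955 genes and LOC103931342 were among those listed without it. For LOC103931342 the second annotation in the table is a lectin receptor kinase, so its identity as a GDSL enzyme is uncertain. Of the 45 tested genes, 4 had such a second annotation for another protein, and LOC103931342 was the 1 called gene among them.

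**Figure D4:**
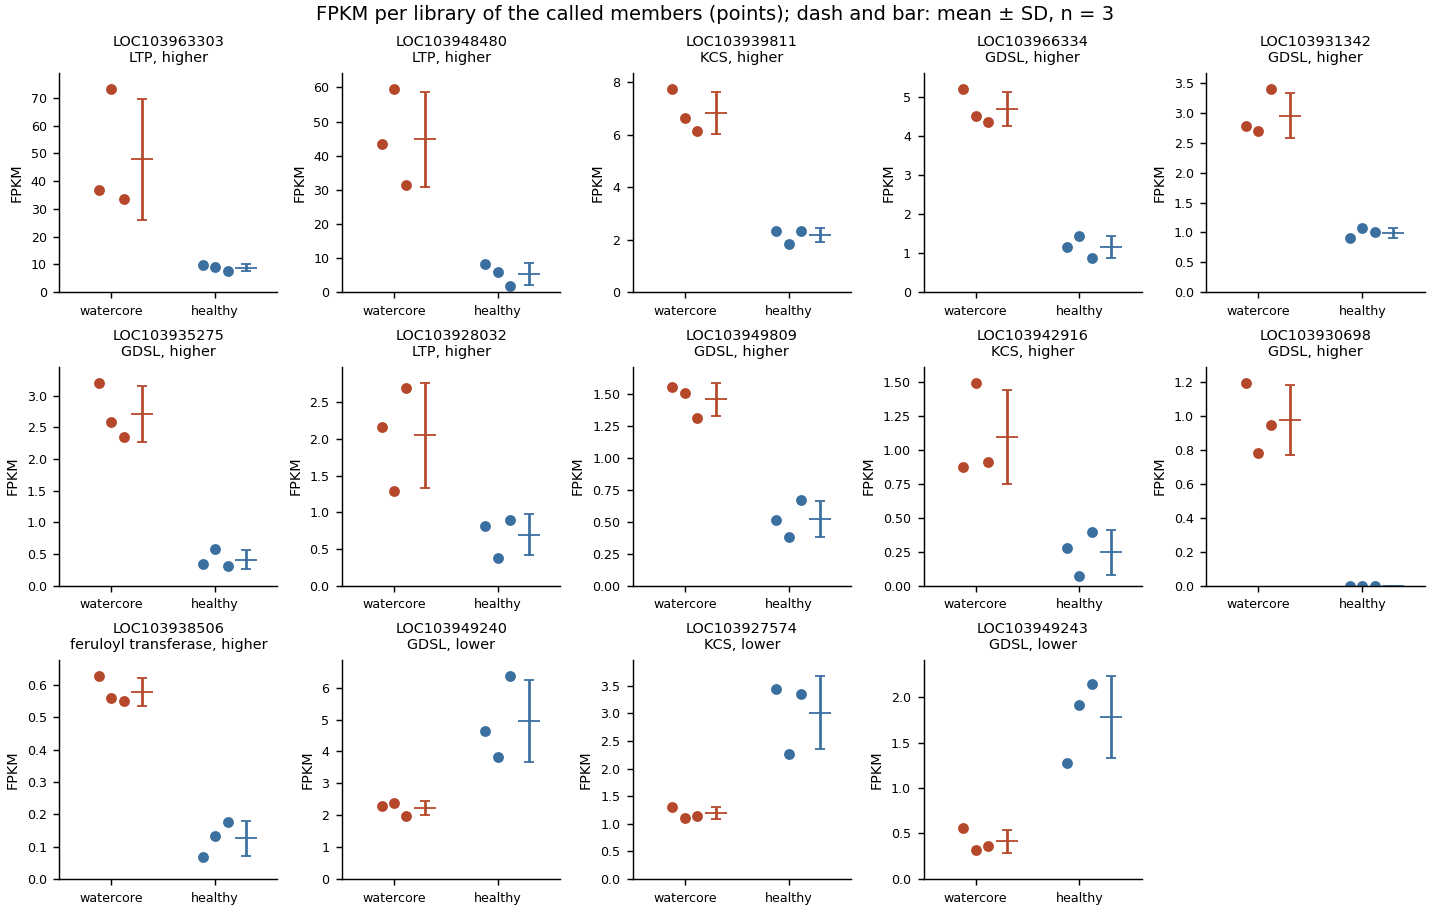
FPKM (y axis of each panel, starting at 0) of the 14 called genes in each watercore (red, left) and healthy (blue, right) library, with the mean and SD of the 3 libraries beside the points. The 11 higher genes come first, ordered by their mean in watercore, followed by the 3 lower ones, and in none of the 14 did the groups overlap. Only LOC103963303 and LOC103948480 exceeded 10 FPKM.

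Lipid-transfer proteins gave the highest summed level of the 8 groups in watercore and the widest difference in FPKM between the tissues. Their 50 genes summed to 293, 350 and 274 FPKM in watercore, against 182, 182 and 171 FPKM in healthy tissue, without overlap. Of these genes, 27 had no count and 5 were tested. Of the 5, 3 were higher (60%) and none was lower, against 17.6% and 7.54% of all tested genes. The lower side also held 0 at an unadjusted p under 0.05 in edgeR, against 6889 of all 21200 tested genes, and 0 by DESeq2, against 1609 of 26649. The leading gene was LOC103952577 (non-specific lipid-transfer protein-like protein At2g13820, NW_008988132.1, 814432 to 816224, plus strand), which ranked 532nd by mean FPKM among all genes. Its Arabidopsis namesake is a xylogen-type protein, a class known from Zinnia cultures as a signal for xylem cell differentiation. It had 200, 207 and 197 FPKM in watercore, against 156, 162 and 158 FPKM in healthy tissue. The groups did not overlap and the spread was small, so that a log2 fold change of 0.33 ± 0.05 had an adjusted p of 3.8e-04 in edgeR's test, far inside the fold limit. It supplied 65.9% of the sum in watercore and 88.9% in healthy tissue. A less abundant gene of the same name, LOC103928032, had 2.17, 1.28 and 2.70 FPKM in watercore, against 0.810, 0.374 and 0.896 FPKM in healthy tissue and was higher by 1.55 ± 0.41 on the log2 scale (edgeR, adjusted p = 0.0097). It too had passed the low-count filter through the watercore libraries alone, which in part fixed its direction. The related LOC108868721 (At5g64080) overlapped between the groups.

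Most of the difference in the sum came from the canonical non-specific lipid-transfer proteins. Their 29 genes summed to 84.4, 135 and 67.8 FPKM in watercore, against 18.9, 15.4 and 10.01 FPKM in healthy tissue, and rested on a pair of genes. LOC103963303 (non-specific lipid-transfer protein 1-like, NW_008988285.1, 141160 to 142194, plus strand) had 36.8, 73.0 and 33.6 FPKM in watercore, against 9.94, 9.16 and 7.49 FPKM in healthy tissue. It was higher by 2.42 ± 0.30 on the log2 scale (edgeR, adjusted p = 1.3e-04). LOC103948480 (non-specific lipid-transfer protein 2-like, NW_008988094.1, 135819 to 136206, plus strand) had 43.3, 59.4 and 31.5 FPKM in watercore, against 8.30, 5.81 and 1.79 FPKM in healthy tissue. Its log2 fold change of 3.05 ± 0.42 (edgeR, adjusted p = 2.2e-04) was the highest among the 45 tested cuticle, wax and lipid-transfer genes with healthy counts. Watercore replicate 2 was the highest library for both genes, and the other watercore libraries still exceeded every healthy one. The same library also gave the highest sum of the laccase and cellulose synthase markers, led there by LOC108865325 (laccase-15-like) at 46.8 FPKM. The part of these markers in the result was not tested.

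The 9 genes named for DIR1, an Arabidopsis lipid-transfer protein that takes part in long-distance defence signalling, were too low to test. They summed to 3.01, 3.38 and 1.74 FPKM in watercore and 0.412, 0.275 and 0.112 FPKM in healthy tissue. The most counted, LOC103954542, had 16, 7 and 10 counts in watercore and 1, 1 and 0 in healthy tissue, 16.4 times as many relative to library totals (counting interval 4.18 to 141).

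Lipid-transfer genes are short, and the comparison varied with gene length over the whole table. When the tested genes were split by length into 5 classes, the shortest (100 to 1115 bases) had a median of −0.37 on the log2 scale and the longest (2856 to 16924 bases) a median of 0.38. The median tested lipid-transfer gene was 668 bases long and the median of all genes 1797 bases, and the median log2 fold change of the lipid-transfer genes was 1.55. With offsets that remove the trend with length it was 1.77, and all 14 calls among the 45 genes were kept. The length given in the table is also the divisor of FPKM. For 5 of the 45 genes it exceeded the genomic span of the gene, by up to 2.97 times for LOC103947140, so the FPKM levels of these genes are lower than their span would give, equally in all libraries.

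**Figure D5:**
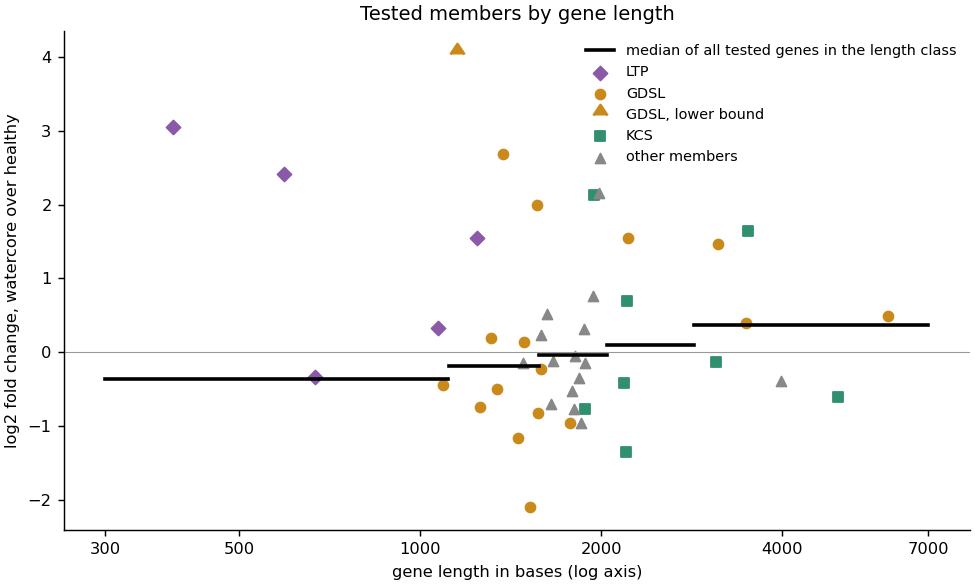
Log2 fold change of watercore over healthy (y axis) against gene length in bases (x axis, log scale) for the 45 tested genes, by group of genes. Black bars are the medians of all tested genes in 5 length classes, cut to the axis range at both ends, and the upward arrowhead is LOC103930698 at its lower bound. The medians run from −0.37 to 0.38, and all 5 lipid-transfer genes lie above the bar of their class, LOC108868721 only just (−0.34 against −0.37).

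Genes of the same pathways that the naming rule does not reach were taken from a further list of 76 genes, of which 30 were tested, 10 were higher and 4 were lower. Over all tested genes, 17.6% were called higher and 7.54% lower. The median log2 fold change of the 30 was 0.12, against 0.00 over all tested genes. Of the 10 higher genes, 8 had passed the low-count filter through the watercore libraries alone, which in part fixed their direction. The 4 lower ones had passed it in both groups. Of 14 genes listed as partners in acyl elongation, 8 were tested, 3 were lower and none was higher (2 on the higher side and 6 on the lower side had an adjusted p under 0.05 in edgeR with no minimum fold, and the list also holds enzymes of other compartments). The enzymes of the cycle itself are named next, and LOC103949412 (PASTICCINO1), a partner protein of the cycle, stood at 0.18 ± 0.05 (edgeR, adjusted p = 0.016), on the higher side. LOC103949862 (very-long-chain 3-oxoacyl-CoA reductase 1-like), which carries out the step after the synthase, had 48.1, 45.4 and 46.5 FPKM in watercore, against 119, 120 and 125 FPKM in healthy tissue. Its log2 fold change was −1.39 ± 0.05 (edgeR, adjusted p = 3.0e-07). The dehydratase genes of the next step were lower too, with log2 fold changes of −1.25 ± 0.10 for LOC103954176 (PASTICCINO type) and −1.18 ± 0.15 for LOC103948952, although with length offsets these values were −0.90 and −0.84 and neither was called. The enoyl reductases of the last step, LOC103935366 and LOC103946139, stood at −0.74 ± 0.06 and −0.69 ± 0.17, inside the fold limit. Of 16 fatty acid hydroxylase genes, 7 were tested, 4 were higher and 1 was lower. The higher ones were all named for CYP94A1, an omega-hydroxylase of fatty acids in vetch, and 3 of these 4 had passed the low-count filter through the watercore libraries alone. LOC103966291 was the most abundant of them, with 14.8, 18.1 and 14.2 FPKM in watercore, against 2.95, 3.49 and 2.02 FPKM in healthy tissue (log2 fold change 2.46 ± 0.19, edgeR adjusted p = 7.7e-06). LOC103946020 had 209 counts in watercore and 3 in healthy tissue, summed over 3 libraries each, 69.1 times as many relative to library totals (counting interval 23.3 to 338). The lower one was LOC103945558 (CYP86B1-like, a suberin hydroxylase in Arabidopsis), with 3.41, 3.62 and 3.75 FPKM in watercore, against 6.87, 7.71 and 8.74 FPKM in healthy tissue (log2 fold change −1.12 ± 0.10, edgeR adjusted p = 2.0e-05).

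Among 13 long-chain acyl-CoA synthetases, which activate fatty acids, 8 were tested and 1 was called, against 25.1% of all tested genes. LOC103938175 (long chain acyl-CoA synthetase 4-like) had 4.07, 4.19 and 5.87 FPKM in watercore, against 0.0279, 0.0553 and 0 FPKM in healthy tissue. With 500 counts against 3, the ratio was 165 and its counting interval 56.2 to 804. LOC103938175 had passed the low-count filter through the watercore libraries alone, which in part fixed its direction. All 4 tested genes of 11 ABCG transporters, a family that exports cutin, suberin and wax precursors, were higher in watercore. All 4 had passed the low-count filter through the watercore libraries alone, so that direction was largely set by the filter. The 11 genes summed to 2.29, 2.62 and 2.72 FPKM in watercore and 0.662, 0.314 and 0.355 FPKM in healthy tissue. The highest of these, LOC103936749 (ABC transporter G family member 6-like), was higher by 2.17 ± 0.42 on the log2 scale (edgeR, adjusted p = 0.0018). LOC103960664 (member 32-like) rested on few counts and lost its call in DESeq2, with length offsets and without each of 5 of the 6 libraries. LOC103941920, a WSD1-like wax ester synthase with 41.1, 38.6 and 36.8 FPKM in watercore and 36.5, 37.7 and 36.9 FPKM in healthy tissue, was the most abundant gene of the wax ester group and was not called. The 4 HOTHEAD genes and 8 WIN1 or SHINE regulators of cuticle synthesis had too few counts to test. Among them, LOC103933322 (HOTHEAD-like) had 0 counts in every watercore library, against 6, 6 and 13 in healthy tissue, at least 8.41-fold lower in watercore with 3 counts as the limit for the watercore libraries together. LOC103964489 (SHINE 2-like) had 5, 4 and 12 counts in watercore and 1, 2 and 0 in healthy tissue.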

How the data were processed

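RNA was sequenced from 3 watercore and 3 healthy libraries. The authors made NEBNext Ultra libraries, cleaned the reads and mapped them with HISAT2. Neither the counting tool and its strand setting nor the build of the scaffold names was given in the sources used here. The study's methods name the Pyrus betulifolia genome as reference, but its printed gene names differ in form from those used here. In the deposited table are raw counts per gene and the authors' FPKM, which were the counts divided by gene length and a constant per library. The deposited comparison columns (group means, fold changes and p-values) were not used. Product names, positions and domains are those of the table.

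Counts were tested with edgeR 4.0.16 (TMM, filterByExpr, quasi-likelihood test with no covariates) in R 4.3.3 over 21200 genes, with p-values adjusted by Benjamini-Hochberg over all of them. The common biological coefficient of variation was 0.143. The script was tested on simulated data: of 200 genes changed by 2 on the log2 scale, edgeR recovered 97.5% with 1 false call. Levels are printed as FPKM, and fold changes come from counts. Counts of 0 were given a floor of 3 counts per group, and count ratios an exact binomial interval. DESeq2 1.42.0 and limma 3.58.1 on log2(FPKM + 1) and log2(FPKM + 0.1), other scalings and filters, gene-length offsets, a replicate block, members by the whole description field and leaving out each library were alternatives.

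The genes and lists were chosen with earlier results of these data known. Genes named by rule were, in each group, the 2 largest called rises and falls with no overlap of groups and an average log2 CPM from 1 upwards, the most abundant tested gene, the 5 most abundant genes in all, and called genes at 0 in 1 group. For the other pathway list they were the 3 largest in each direction. All others were chosen after their values were seen. The lists named for BODYGUARD, DCR and MYB regulators matched 0 genes.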

Additional observations from a re-analysis of the deposited data

How the results depend on the processing

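All 14 calls among the 45 tested genes were kept with RLE scaling, with library totals, with gene-length offsets and with the replicate block, which called the same 14 genes (11 higher and 3 lower). The deviations of same-numbered libraries correlated at 0.037, 0.003 and −0.003, so the numbers were not taken to pair them. Of the set, 25 genes were higher with no filter, 23 by DESeq2, 6 with at least 10 counts in every library, 5 by limma on log2(FPKM + 1), 7 on log2(FPKM + 0.1), 6 on log2(FPKM + 1) with no minimum FPKM, and 18 when taken by the whole description. Lower genes were 0 by limma on log2(FPKM + 1) with or without a minimum FPKM, 13 with no minimum fold and 8 by the whole description. Leaving out each library gave 11 to 15 higher and 3 to 4 lower genes. Over all genes, higher calls were 2205 with at least 10 counts, 2123 by limma on log2(FPKM + 1), 2313 when its minimum FPKM was dropped, and 6840 with no minimum fold, and lower calls 1047, 817, 824 and 6435.

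By group, with no filter the higher calls were 4 KCS, 3 feruloyl transferase, 2 GPAT, 9 GDSL and 7 LTP, and by DESeq2 4, 2, 1, 9 and 7. With at least 10 counts they were 1 KCS, 0 feruloyl transferase and 3 GDSL, and the lower GDSL calls 1. Limma on log2(FPKM + 1), with or without a minimum FPKM, called 1 KCS, 0 feruloyl transferase and 2 GDSL genes higher and 0 KCS and 0 GDSL genes lower, and on log2(FPKM + 0.1) 1, 0 and 3 higher. With no minimum fold, 2 GPAT genes were higher, and 3 KCS, 3 LPAT, 1 GPAT and 6 GDSL genes lower. Leaving out each library gave 1 to 2 feruloyl transferase calls higher (2 without healthy replicate 1, 2 or 3 or watercore replicate 1), and 0 to 1 LPAT (1 without healthy replicate 3 or watercore replicate 1), 0 to 1 GPAT (1 without healthy replicate 2 or watercore replicate 3) and 1 to 2 GDSL calls lower (1 without healthy replicate 3). Of the other pathway genes, 3 were higher with at least 10 counts and by each limma fit, 2 were lower with length offsets and 9 with no minimum fold.

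Of 902 values of single genes under the alternatives, 857 kept direction and side of the threshold, 34 lost the call, 2 gained it and 9 turned sign, none of these in a called gene. Those were LOC103936879 (0.014 with at least 10 counts, and −0.12 to 0.0068 when each library was left out), LOC103936673 (−0.25 to 0.046 when each was left out), LOC103940362 (−0.14 with length offsets), LOC108867019 (−0.035 to 0.29), LOC103940137 (−0.16 to 0.57) and LOC108868721 (−0.63 to 0.082, and 0.075 with length offsets). The cause was not tested. With the block, LOC103936053 had a log2 fold change of −0.85 and an edgeR adjusted p of 0.017, still inside the fold limit. The 200 untested genes were too low for the filter, and 109 of them had no count in any library.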
